A study of Mus musculus with 12 samples.

Results

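The secreted Wnt antagonists are proteins that cells release to keep Wnt ligands from their receptors. Members of this family were followed in RNA sequencing of adult mouse cardiomyocytes that carried or lacked desmin, the intermediate filament protein that links the myofibrils of heart muscle cells. The members were taken by gene symbol and were Sfrp1, Sfrp2, Sfrp4, Sfrp5, Frzb, Dkk2, Dkk3 and Wif1, which made up 8 of the 21493 genes listed in each count table. All 8 had enough reads to be tested among the 13158 genes kept by the filter on low counts.

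The libraries fell into 4 groups of 3. Des+/+ non-swim and Des-/- non-swim cells came from unexercised mice with both copies of the desmin gene or with none, and Des+/+ swim and Des-/- swim cells came from mice of the same genotypes that had undergone swimming as an exercise stress. Every library was made from poly-A RNA of primary cardiomyocytes from 3-month-old mice, released from the heart with trypsin and collagenase. According to the study's methods each held cells pooled from several mice. The methods place both lines on a 129SV background and describe them as homozygous for a GFP reporter driven by the αMHC promoter, which is active in cardiomyocytes, whereas the labels of these libraries do not name the reporter. Nothing in the labels ties a library to an animal, so p-values measure the spread between pools.

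Wnt proteins bind Frizzled receptors together with the co-receptors Lrp5 or Lrp6, and in the canonical branch this stabilises beta-catenin, which then acts with TCF/LEF factors on target genes. Secreted Frizzled-related proteins (Sfrp1, Sfrp2, Sfrp4, Sfrp5 and Frzb, also called Sfrp3) carry a domain like that of Frizzled and bind Wnt proteins outside the cell. Wif1 binds Wnt proteins through a different domain, and Dkk2 blocks Lrp5 and Lrp6 together with Kremen receptors. Dkk3 is a divergent member of the Dickkopf family, grouped here by its name and structure. In the heart, Sfrp genes are known mainly from the stroma, where fibroblasts and epicardial derivatives produce matrix, and Wnt signalling is active in repair and fibrosis.

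RefSeq promoter windows were matched for 5 of the 8 members (Sfrp2, Sfrp5, Frzb, Dkk2 and Wif1). The 250 bases before the start are shown for Sfrp2, whose level differed most between genotypes, and for Sfrp5, whose level moved the other way in unexercised mice. They are also shown for Dkk2, which, like Wif1, holds a match to both a GC box and a TATA box. The TATAAA letters lie 32 to 27 bases before the start in Dkk2. In Wif1 they lie 232 to 227 bases before it, on the opposite strand. Capitals mark a GC box (GGGCGG) or a TATA box (TATAAA) on either strand, and all coordinates are GRCm38.p6.
Sfrp2, chr3:83766071-83766320, plus strand: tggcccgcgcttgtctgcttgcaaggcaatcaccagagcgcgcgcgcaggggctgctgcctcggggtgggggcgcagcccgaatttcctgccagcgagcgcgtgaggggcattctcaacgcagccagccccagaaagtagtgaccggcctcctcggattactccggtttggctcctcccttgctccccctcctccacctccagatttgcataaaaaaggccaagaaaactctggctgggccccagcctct
Sfrp5, chr19:42202253-42202502, minus strand: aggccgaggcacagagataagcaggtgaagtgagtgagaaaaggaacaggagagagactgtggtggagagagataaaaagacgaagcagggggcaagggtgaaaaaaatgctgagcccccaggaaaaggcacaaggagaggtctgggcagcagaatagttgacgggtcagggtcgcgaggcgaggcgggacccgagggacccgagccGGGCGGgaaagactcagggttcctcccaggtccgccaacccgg
Dkk2, chr3:132085042-132085291, plus strand: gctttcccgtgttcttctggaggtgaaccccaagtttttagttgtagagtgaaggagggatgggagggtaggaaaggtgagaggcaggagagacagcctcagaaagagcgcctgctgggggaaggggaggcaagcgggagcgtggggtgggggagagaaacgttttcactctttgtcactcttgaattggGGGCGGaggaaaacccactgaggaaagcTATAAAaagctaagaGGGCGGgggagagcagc
The Sfrp2 window held no match to any searched motif. A GC box was found in 4 of the 5 windows, against 32.7% of 32851 mouse promoter windows of the same length, and a TATA box in 2 of 5, against 12.4%. The core letters bound by TCF/LEF factors (CTTTGAT or CTTTGAA, either strand) occurred in 0 of 5 and in 7.48% of all windows. None of the matches overlapped another. The windows of Frzb and Wif1 reach into the first exon of the GENCODE models, and no promoter is printed for them. Most of the Frzb window (chr2:80447397-80447646, minus strand) lies inside that gene model, which starts at 80447625 on this strand. The GC box counted for Frzb lies in that part.

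The targeted gene was examined first. Des was between 973 and 3647 CPM (counts scaled to the size of the library, with TMM factors) in the 6 Des+/+ libraries and between 50.3 and 101 CPM in the 6 Des-/- libraries, so each library matched its genotype label. Reads in genes ranged from 4320819 to 12072443 per library, and 3 counts in the shallowest library equalled 0.656 CPM. The Des-/- swim libraries were the shallowest, at 4320819 to 6521963 reads. The share of unique reads in no gene was 34.0 to 39.3% in Des+/+ non-swim, 45.9 to 50.4% in Des+/+ swim and 57.2 to 64.5% in Des-/- swim libraries. In Des-/- non-swim replicates 1, 2 and 3 it was 52.3, 49.0 and 34.2%. The part of these differences in the results was not tested. Markers of cardiomyocytes were present in every library, although all 7 were lower in Des-/- non-swim than in Des+/+ non-swim cells. Their summed level ran from 48491 to 75123 CPM in Des+/+ non-swim, 24349 to 41373 in Des+/+ swim, 4678 to 21233 in Des-/- non-swim and 12059 to 21068 in Des-/- swim libraries. Replicate 3 of both Des-/- groups stood apart, with the lowest cardiomyocyte sum and the highest fibroblast and macrophage sums of its group. The members' results that rest on these libraries are given with and without them. So are the counts of pathway genes and of markers of other cell types between genotypes.

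The first question was how the antagonists differ between genotypes in unexercised hearts. Of the 8 genes, 5 were higher in Des-/- cells (Sfrp1, Sfrp2, Sfrp4, Frzb and Dkk3) and none was called lower, at an adjusted p under 0.05 in edgeR's quasi-likelihood test over all genes. By the same rule 14.0% of all tested genes were called higher and 32.0% were called in either direction. The median log2 change of the members was 1.95, against 0.04 for all tested genes, and 7 of 8 lay above 0. The libraries of the 2 groups did not overlap for the same 5 genes, where 23.0% of tested genes were higher without overlap, and for Sfrp5, which was lower, where 24.9% were. Fold changes below compare Des-/- with Des+/+ cells.

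**Figure D1:**
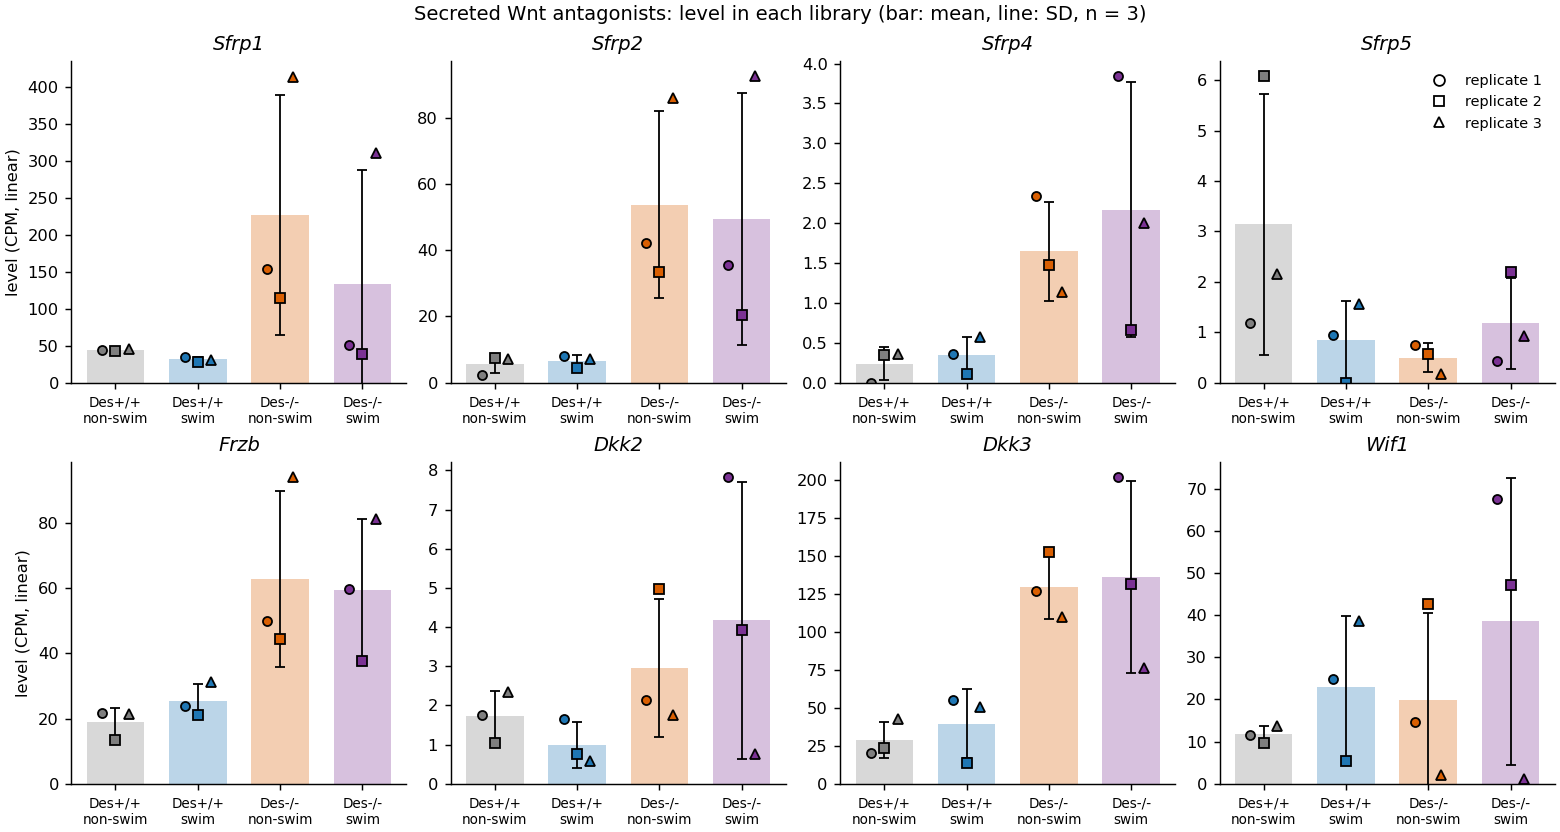
Level of each antagonist in CPM (linear axis from 0, scaled per gene) in each library, by group. Points are libraries with the replicate number as the symbol, bars are means and lines are SD (n = 3). The 5 genes called in unexercised cells lie higher in every Des-/- non-swim library than in any Des+/+ non-swim library, and Wif1 is lowest in replicate 3 of both Des-/- groups.

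Sfrp2, a secreted Frizzled-related protein produced by stromal cells during tissue repair, showed the largest difference of the members. The gene (ENSMUSG00000027996) lies on chromosome 3, 83766321 to 83774316, on the plus strand of GRCm38. Its level was 2.36, 7.48 and 7.13 CPM in the Des+/+ non-swim libraries and 42.1, 33.3 and 86.1 CPM in the Des-/- non-swim libraries. The lowest Des-/- library thus lay above the highest Des+/+ library. The change was 9.45-fold (log2 3.24, SE 0.60, adjusted p 0.00275), and it was called in each of the 12 fits that left out 1 library. The annotated antisense gene Gm26771 overlaps Sfrp2 and has no row in the count tables used here. The study's methods give strand-specific counting while the labels name a kit that does not mark strand, and without strand the reads of the pair cannot be told apart.

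Sfrp1, a secreted Frizzled-related protein of the same subgroup as Sfrp2, had the highest mean level per length of the members in Des+/+ non-swim cells. The gene (ENSMUSG00000031548) is on chromosome 8, 23411502 to 23449632, plus strand. Its level was 43.5, 42.2 and 45.0 CPM in Des+/+ non-swim cells and 154, 114 and 413 CPM in Des-/- non-swim cells. The Des+/+ libraries were close to each other, whereas replicate 3 of the Des-/- group was far above its companions. The change was 5.21-fold (log2 2.38, SE 0.70, adjusted p 0.0238). Without Des-/- non-swim replicate 3 it was 1.63 on the log2 scale and no longer called, and the call was also lost without any single Des+/+ non-swim library (adjusted p up to 0.0925 over the fits that left out 1 library). With replicate 3 of both Des-/- groups left out the change was 1.69 with an adjusted p of 5.22e-04.

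Frzb, first described as an inhibitor of Wnt in cartilage and embryo, lies on chromosome 2, 80411970 to 80447625, minus strand (ENSMUSG00000027004). Its level was 21.6, 13.6 and 21.3 CPM in Des+/+ non-swim and 50.0, 44.5 and 93.9 CPM in Des-/- non-swim cells. All Des-/- libraries were higher than all Des+/+ libraries, and replicate 3 was again the highest. The change was 3.34-fold (log2 1.74, SE 0.34, adjusted p 0.00356), called in 12 of 12 fits that left out 1 library.

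Dkk3, on chromosome 7, 112116017 to 112159057, minus strand (ENSMUSG00000030772), was 20.3, 23.5 and 42.5 CPM in Des+/+ non-swim and 127, 152 and 109.9 CPM in Des-/- non-swim cells. Here replicate 3 was the lowest of the Des-/- libraries and not the highest, in contrast to Sfrp1, Sfrp2 and Frzb. The change was 4.49-fold (log2 2.17, SE 0.50, adjusted p 0.00779), called in 12 of 12 such fits.

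Sfrp4, on chromosome 13, 19623104 to 19632994, plus strand (ENSMUSG00000021319), was close to the detection limit. Its counts were 0, 3 and 4 reads in Des+/+ non-swim and 22, 13 and 13 reads in Des-/- non-swim libraries. Summed over each group, 7 and 48 reads gave a depth-corrected ratio of 6.50 (95% interval 2.92 to 17.0, counting error only). The edgeR log2 change was 2.68 (SE 0.83, adjusted p 0.0291). It was called in 8 of the 12 fits that left out 1 library and lost without any Des+/+ non-swim library or Des-/- non-swim replicate 1, and with a filter at a mean of 20 counts the gene was not tested.

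Sfrp5 was the exception in direction. The gene (ENSMUSG00000018822) is on chromosome 19, 42197971 to 42202252, minus strand, and is known as an adipose-derived Wnt antagonist. Its counts were 10, 52 and 24 reads in Des+/+ non-swim and 7, 5 and 2 reads in Des-/- non-swim libraries, or 1.18, 6.08 and 2.17 against 0.744, 0.566 and 0.175 CPM. The Des+/+ libraries were higher without overlap but differed by several fold among themselves. The log2 change was -2.66 (SE 0.98) with an adjusted p of 0.0578, which missed the threshold. DESeq2 (adjusted p 0.0291) and the fit of the 6 libraries alone (0.0439) called it lower, whereas 1 of the 12 fits that left out 1 library did. Without Des+/+ non-swim replicate 2, which held 52 of the 86 reads of its group, the change was -1.77 (adjusted p 0.244).

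Dkk2 and Wif1 did not pass the test in unexercised cells. Dkk2, on chromosome 3, 132085292 to 132180304, plus strand (ENSMUSG00000028031), was 1.77, 1.05 and 2.35 CPM in Des+/+ non-swim and 2.13, 4.98 and 1.75 CPM in Des-/- non-swim cells. The groups overlapped, with a log2 change of 0.75 (SE 0.71, adjusted p 0.446) that was 0.15 without Des-/- non-swim replicate 2. Wif1, on chromosome 10, 121033960 to 121100650, plus strand (ENSMUSG00000020218), was 11.7, 9.70 and 13.7 CPM in Des+/+ non-swim and 14.6, 42.7 and 2.01 CPM in Des-/- non-swim cells. The Des-/- libraries lay on both sides of the Des+/+ libraries, and the log2 change of 0.74 (SE 1.11, adjusted p 0.642) turned to -0.52 without Des-/- non-swim replicate 2.

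The same comparison was then made between mice that had swum. Here 3 of the 8 antagonists (Sfrp2, Frzb and Dkk3) were higher in Des-/- cells and none was called lower, where 5.01% of tested genes were called higher and 10.6% in either direction. The members' median log2 change was 1.92, against 0.02 for all tested genes, and all 8 values lay above 0. Without Des-/- swim replicate 1 the members' median was 1.31. The libraries did not overlap for the same 5 genes as in unexercised cells, against 17.3% of tested genes that were higher without overlap. The number of calls depended on single libraries, from 0 without Des+/+ swim replicate 2 or 3 to 5 without Des-/- non-swim replicate 3, and DESeq2 called 6. The calls over all genes moved as well, from 1392 in the fit of all libraries to 74 without Des+/+ swim replicate 3 and 2142 without Des-/- non-swim replicate 3. The members' counts are therefore not a result about the members alone.

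Sfrp2 was 7.91, 4.39 and 7.12 CPM in Des+/+ swim and 35.4, 20.6 and 92.5 CPM in Des-/- swim cells. Replicate 3 was once more the highest Des-/- library, and no library overlapped. The change was 7.70-fold (log2 2.94, SE 0.60, adjusted p 0.0174), called in 10 of 12 fits that left out 1 library and lost without Des+/+ swim replicate 2 or 3.

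Frzb was 24.0, 21.2 and 31.2 CPM in Des+/+ swim and 59.6, 37.6 and 81.3 CPM in Des-/- swim cells, a change of 2.35-fold (log2 1.23, SE 0.34, adjusted p 0.0409). Dkk3 was 54.9, 13.4 and 50.7 CPM in Des+/+ swim and 202, 131 and 75.9 CPM in Des-/- swim cells, a change of 3.45-fold (log2 1.78, SE 0.49, adjusted p 0.0418). Neither gene overlapped between genotypes, yet both calls were close to the threshold. Frzb was called in 5 and Dkk3 in 4 of the 12 fits that left out 1 library, and leaving out any single Des+/+ swim library ended both calls.

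Sfrp1 and Sfrp4 also lay higher in every Des-/- swim library but missed the threshold. Sfrp1 was 35.1, 28.5 and 30.6 CPM in Des+/+ swim and 51.5, 39.4 and 311 CPM in Des-/- swim cells. Replicate 3 decided the size of this difference, since the log2 change was 2.10 (SE 0.70, adjusted p 0.0747) with it and 0.54 without it. Sfrp4 held 3, 1 and 4 reads in Des+/+ swim and 27, 3 and 13 reads in Des-/- swim libraries, summing to a depth-corrected ratio of 7.38 (95% interval 3.43 to 18.2, counting error only) and a log2 change of 2.70 (SE 0.82, adjusted p 0.0558). Without Des-/- swim replicate 1, which held 27 of the 43 reads, this change was 2.00 (adjusted p 0.186).

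Dkk2 was 1.65, 0.749 and 0.569 CPM in Des+/+ swim and 7.82, 3.94 and 0.770 CPM in Des-/- swim cells. Its lowest Des-/- library, replicate 3, fell within the Des+/+ range, and the log2 change was 2.06 (SE 0.76, adjusted p 0.0960). With replicate 3 of both Des-/- groups left out the change was 2.57 and was called (adjusted p 0.0222), whereas without Des-/- swim replicate 1 it was 1.18 (adjusted p 0.359). Wif1 was 24.9, 5.35 and 38.7 CPM in Des+/+ swim and 67.5, 47.0 and 1.08 CPM in Des-/- swim cells, so the groups overlapped (log2 0.75, SE 1.09, adjusted p 0.670). Sfrp5 held 8, 0 and 11 reads in Des+/+ swim and 3, 10 and 6 reads in Des-/- swim libraries and showed no direction (log2 0.47, SE 1.03, adjusted p 0.787).

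**Figure D2:**
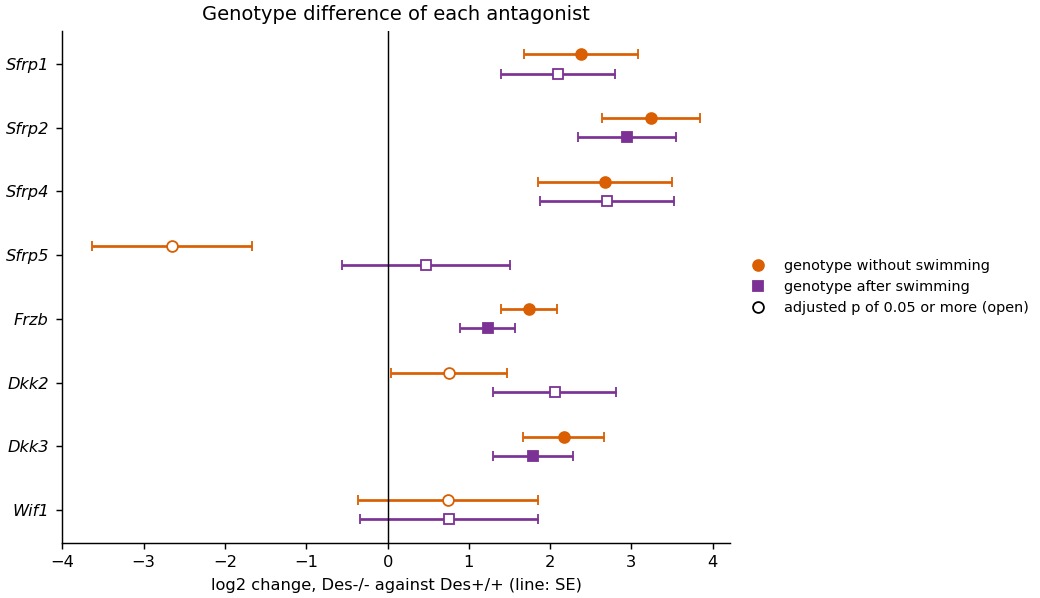
Log2 change of each antagonist between Des-/- and Des+/+ cells (x axis) without swimming (orange circles) and after swimming (purple squares), with SE as horizontal lines. Filled symbols have an adjusted p under 0.05. The 2 contrasts lie within 1 SE of each other for Sfrp1, Sfrp2, Sfrp4, Dkk3 and Wif1, and Sfrp5 lies at -2.66 without and 0.47 after swimming.

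Leaving out libraries gave a view of how much each difference rests on a single pool. Without swimming, the ranges over the 12 fits were 2.73 to 3.49 for Sfrp2, 1.33 to 1.93 for Frzb, 1.97 to 2.56 for Dkk3, 1.63 to 2.70 for Sfrp1 and 2.16 to 3.11 for Sfrp4. After swimming, the range widened to between 0.54 and 2.53 for Sfrp1, and for Sfrp2 it was 2.12, without Des-/- swim replicate 3, to 3.30. Removing replicate 3 from both Des-/- groups left 5 members called without and 4 after swimming. The share of all genes called in that fit is not given here.

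**Figure D3:**
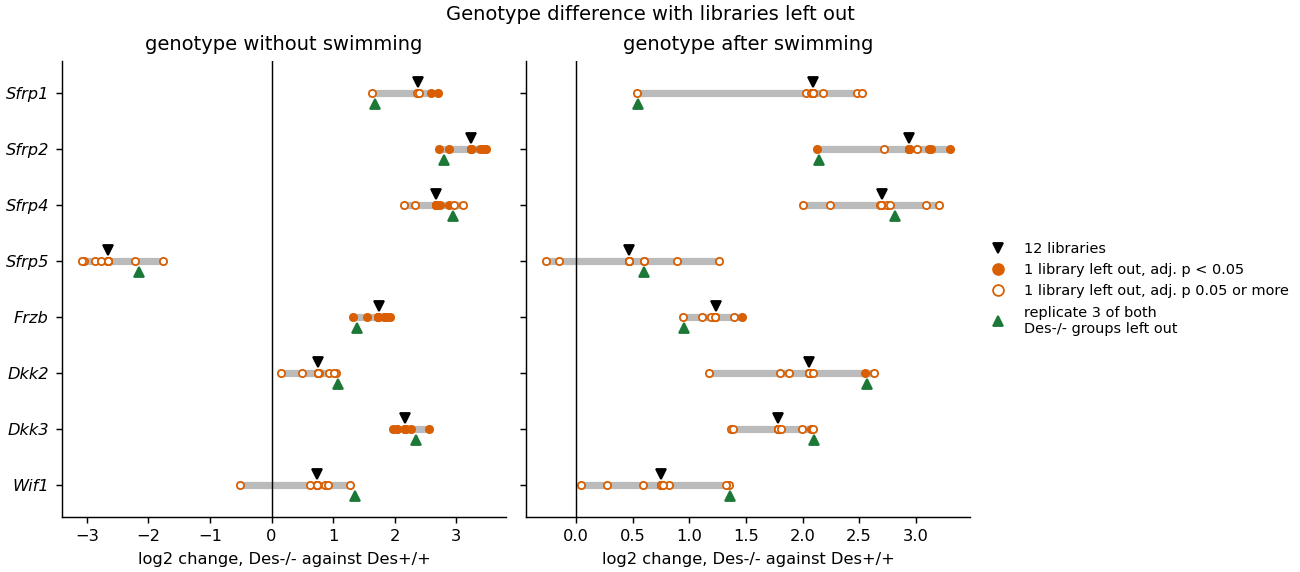
Log2 change between Des-/- and Des+/+ cells (x axis) for each antagonist, without (left) and after swimming (right). Black triangles are the fits of all 12 libraries, orange circles are fits that left out 1 library (filled where the adjusted p was under 0.05), and green triangles are fits without replicate 3 of both Des-/- groups. Sfrp2, Frzb and Dkk3 stay filled throughout on the left, while Sfrp1 falls to 0.54 on the right in 1 fit.

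Swimming itself was compared within each genotype. None of the 8 antagonists was called in either genotype, where 0.0912% of tested genes were called in Des+/+ and 0.0228% in Des-/- cells. At an unadjusted p under 0.05 the count was also 0 of 8 in both, against 20.5% and 16.7% of tested genes. DESeq2 called 0, but it gave no adjusted p for Sfrp4 and Sfrp5 in either genotype or for Dkk2 in Des+/+ cells. In Des+/+ cells the log2 changes ran from -1.94 for Sfrp5 (adjusted p 0.271) to 0.96 for Wif1 (adjusted p 0.658). Sfrp1 was lower in all 3 swum than in all 3 unexercised Des+/+ libraries, at a mean of 31.4 ± 3.38 against 43.6 ± 1.42 CPM (SD, n = 3 each), where 18.7% of tested genes were lower without overlap. In Des-/- cells the changes ran from -0.76 for Sfrp1 (adjusted p 0.581) to 1.19 for Sfrp5 (adjusted p 0.589). The labels do not pair swum with unexercised pools. In these data same-numbered Des-/- libraries deviated from their group means together, with replicate 3 apart in both groups. Taken by number, Sfrp1 was lower after swimming in all 3 pairs (154 to 51.5, 114 to 39.4 and 413 to 311 CPM). With the number as a block in the 6 Des-/- libraries its log2 change was -1.16 (adjusted p 0.0912). With replicate 3 left out of both Des-/- groups, Sfrp1 was called lower after swimming (log2 -1.54, adjusted p 0.0109), and without Des-/- non-swim replicate 3 alone, which leaves the swum replicate 3 in, its change was near 0 (log2 -0.0045). All 10 fibroblast markers on the list had a log2 change under 0 for swimming in Des-/- cells as well, with a median of -0.86 (0 called, 7 at an unadjusted p under 0.05). Without replicate 3 of both groups their median was -0.81, with 3 called lower (Col1a1, Col1a2 and Col3a1). Their part in the change of Sfrp1 was not tested. In Des+/+ cells 8 of the 10 markers were under 0, with a median of -0.29 and 0 called (0 at an unadjusted p under 0.05).

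The interaction, which asks whether the genotype difference changes with swimming, was called for 0 of the 8 members and 0 of the 13158 genes by edgeR. Sfrp5 was the member with an unadjusted p under 0.05 (log2 3.12, SE 1.43, p 0.0499, adjusted p 0.306 in edgeR), where 16.3% of tested genes had one. DESeq2 called 0 members, but it gave no adjusted p for Sfrp4, Sfrp5 (log2 3.17, SE 1.46) and Dkk2, which could not be called. The lowest value of a member was -0.51, for Frzb (adjusted p 0.591).

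Levels were compared between genes per exon length, as CPM per kilobase (RPKM). In Des+/+ non-swim cells the order was Sfrp1 at 9.97 ± 0.32, Dkk3 at 8.56 ± 3.58, Frzb at 5.81 ± 1.41, Wif1 at 4.82 ± 0.83, Sfrp2 at 2.63 ± 1.33, Sfrp5 at 1.65 ± 1.36, Dkk2 at 0.465 ± 0.175 and Sfrp4 at 0.0568 ± 0.0492 RPKM (SD, n = 3). Apart from Dkk2 and Sfrp4, whose libraries did not overlap, neighbours in this order overlapped in range, except that the lowest Wif1 library lay above the highest Sfrp2 library. In Des-/- non-swim cells the order was Sfrp1 at 51.9 ± 37.1, Dkk3 at 38.6 ± 6.37, Sfrp2 at 25.0 ± 13.1, Frzb at 19.4 ± 8.37, Wif1 at 8.14 ± 8.58, Dkk2 at 0.797 ± 0.477, Sfrp4 at 0.395 ± 0.148 and Sfrp5 at 0.261 ± 0.153 RPKM (SD, n = 3). Sfrp2 moved above Frzb and Wif1 in mean level, although every neighbouring pair in this order overlapped in range. Dkk3 was the member with the smallest spread relative to its mean in this group. After swimming the means ran from Dkk3 at 11.8 ± 6.80 through Wif1 at 9.47 ± 6.91, Frzb at 7.86 ± 1.59 and Sfrp1 at 7.18 ± 0.77 to Sfrp4 at 0.0822 ± 0.0553 RPKM in Des+/+ cells, and from Dkk3 at 40.6 ± 18.8 through Sfrp1 at 30.6 ± 35.1, Sfrp2 at 23.0 ± 17.6, Frzb at 18.4 ± 6.75 and Wif1 at 15.9 ± 14.0 to Sfrp4 at 0.518 ± 0.382 RPKM in Des-/- cells (SD, n = 3). Dkk3 thus had the highest mean after swimming in both genotypes, with ranges that overlapped those of the next gene. Summed over the members, the level was 102 to 135 CPM in Des+/+ non-swim, 73.6 to 161 in Des+/+ swim, 393 to 708 in Des-/- non-swim and 283 to 565 CPM in Des-/- swim libraries.

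The antagonists did not vary together from library to library. In replicate 3 of the Des-/- groups, Sfrp1, Sfrp2 and Frzb reached their highest level of each group, while Wif1 reached its lowest. Wif1 was 2.01 and 1.08 CPM in these libraries and 14.6 to 67.5 CPM in the other 4 Des-/- libraries. Dkk2 and Dkk3 were likewise lowest there within each Des-/- group. The same libraries held 36917 and 12475 CPM of the 10 fibroblast markers, against 8736 and 9983 CPM in the other Des-/- non-swim libraries and 4235 and 5023 CPM in the other Des-/- swim libraries.

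**Figure D4:**
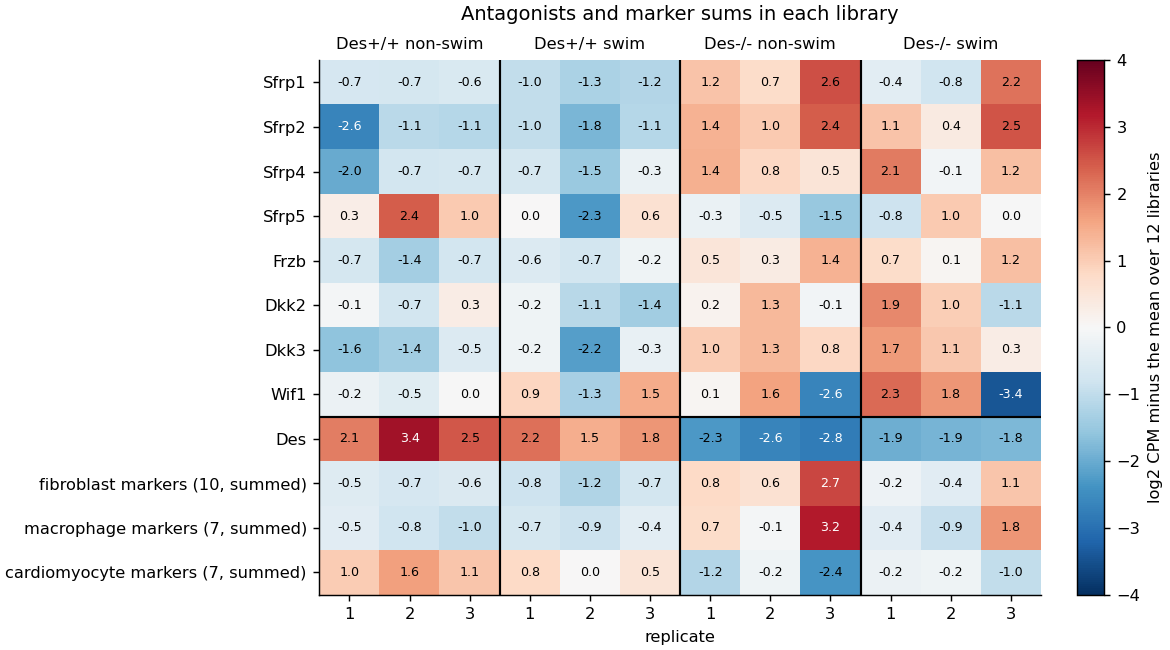
Log2 CPM of each antagonist, of Des and of the summed marker lists in each library, as the difference from the mean of that row over 12 libraries (colour and printed value, prior count of 2 for single genes). Columns are libraries by group and replicate number. Sfrp1, Sfrp2 and Frzb are reddest and Wif1 bluest in replicate 3 of both Des-/- groups, where fibroblast and macrophage sums are also at their highest.

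The genes whose level followed each member most closely over the 12 libraries were listed by Pearson's r of log2 CPM. The libraries differ in genotype, pool and depth, and such differences can move many genes together, so r is a description only. Sfrp1 was followed by Loxl1 (r = 0.994), Cilp (0.986) and Col8a1 (0.983), which encode a collagen and elastin crosslinking enzyme, a matrix protein of cartilage and a collagen chain. Frzb was followed by Sp140 (0.986), Ecm1 (0.964) and Ptpn18 (0.963), and Sfrp2 by Numbl (0.978), Scarf2 (0.977) and Junb (0.974). Dkk3 was followed by Calhm5 (0.948), the fibroblast gene Dpt (0.940) and Scara3 (0.936). Sfrp4 was closest to Dennd2d (0.944), Agmo (0.943) and Pamr1 (0.933). Wif1 was closest to Hapln1, a hyaluronan link protein (0.956), to the ligand Wnt9b (0.915) and to Shisa2 (0.882). Dkk2 was closest to Lrrn3 (0.916), Nfe2 (0.911) and Rgs18 (0.904), and Sfrp5 to Vps25 (0.964), Zfp651 (0.911) and Zfp536 (0.904), for 2 genes with few reads.

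Since the Sfrp genes are known from stromal cells, their differences were set beside markers of the other cells that a cardiomyocyte preparation can hold. In bulk samples, fewer cells of a type and less RNA per cell cannot be told apart. Fibroblast markers were higher for 10 of 10 genes in Des-/- non-swim cells (log2 change 0.85 to 3.07) and for 2 of 10 after swimming (Dpt and Fbln1). The counts were also 10 and 2 without replicate 3 of both Des-/- groups, and without Des-/- non-swim replicate 3 alone 5 of 10 were called in unexercised cells. Their sum was 3640 to 4000 CPM in Des+/+ non-swim, 2494 to 3508 in Des+/+ swim, 8736 to 36917 in Des-/- non-swim and 4235 to 12475 CPM in Des-/- swim libraries, and none of the markers was at 0. Of 7 macrophage markers 6 were higher without swimming and 0 after it, and their sum ran from 99.1 to 144 CPM over the Des+/+ libraries and from 102 to 1749 CPM over the Des-/- libraries. Without replicate 3 of both Des-/- groups 4 of the 7 were called higher without swimming, and without Des-/- non-swim replicate 3 alone 0 were (1 at an unadjusted p under 0.05). After swimming, leaving out replicate 3 of both Des-/- groups gave 1 lower call (Cd163) and a median log2 change of -0.07, against 1.17 in all 12 libraries. For 7 endothelial markers the counts were 0 without and 1 after swimming. Without replicate 3 of both Des-/- groups they were 2 higher (Egfl7 and Tie1) and 1 higher (Vwf). Epicardial and mesothelial markers (5 in the tables) gave 0 calls in both contrasts, with sums of 5.27 to 61.6 CPM in Des+/+ and 20.7 to 306 CPM in Des-/- libraries. All 5 had a log2 change above 0 in both, with medians of 1.85 without and 2.16 after swimming. Higher without overlap were 0 without and 3 after swimming, where 23.0% and 17.3% of tested genes were. Without replicate 3 of both Des-/- groups the medians were 1.79 and 0.67. Mural markers (7) gave 1 lower and 0 calls without and after swimming, atrial markers (6 tested) 1 lower and 1 higher, and Schwann cell markers (5) 0 and 0. These counts, and those of the epicardial and mesothelial markers, were the same without replicate 3 of both Des-/- groups. The part of cell composition in the antagonists' differences was not tested.

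The size of the differences could be set against the fibroblast markers directly. The 7 fibroblast markers other than collagens (Pdgfra, Tcf21, Dcn, Lum, Dpt, Mmp2 and Fbln1) rose by log2 0.85 to 1.59 in Des-/- non-swim cells, and the 3 collagen chains Col1a1, Col1a2 and Col3a1 by 2.78 to 3.07. The 5 called antagonists, at 1.74 to 3.24, lay above the first range, but they were picked by their calls, which favours large changes. Dkk2 (0.75), Wif1 (0.74) and Sfrp5 (-2.66) lay below that range. Without Des-/- non-swim replicate 3 the change of Frzb was 1.33. The difference between members and markers was not tested. The summed level of the 7 markers was 1818 to 2191 CPM in Des+/+ non-swim and 3649 to 4488 CPM in Des-/- non-swim libraries, and 1515 to 2006 against 2275 to 3432 CPM after swimming. Expressed as a percentage of this sum, a measure chosen after the values were seen, 4 of 8 members (Sfrp1, Sfrp2, Sfrp4 and Dkk3) were higher without overlap in unexercised Des-/- cells, where 1.83% of tested genes were. After swimming it was 3 of 8 (Sfrp2, Sfrp4 and Frzb), against 1.87%. The sum was itself higher in Des-/- cells, so dividing by it lowers every gene that rose less. In unexercised cells 75.1% of tested genes were lower without overlap on this measure. The small shares of tested genes that were higher follow in part from this division, so the tallies cannot show an excess over fibroblast genes. They also depended on leaving out the collagens. As a percentage of all 10 markers 1 of 8 members, Sfrp2, was higher without overlap in each condition, where 0.464% of tested genes were without and 0.973% after swimming.

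Sfrp2 amounted to 0.130 to 0.410% of this sum in Des+/+ non-swim and 0.912 to 1.97% in Des-/- non-swim libraries, and to 0.290 to 0.423% against 0.903 to 2.85% after swimming. It was thus separated between genotypes in both conditions. Sfrp1 amounted to 2.06 to 2.39% in Des+/+ non-swim and 3.13 to 9.44% in Des-/- non-swim libraries, but overlapped after swimming at 1.53 to 1.88% against 1.50 to 9.56%. As a percentage of all 10 markers, with the collagens, Sfrp1 overlapped between genotypes, at 1.09 to 1.17% in Des+/+ non-swim and 1.12 to 1.54% in Des-/- non-swim libraries. Dkk3 ran the other way on that measure in Des-/- non-swim replicate 3, where it was 0.298% of all 10 markers, below every Des+/+ library. Sfrp5 amounted to 0.0648 to 0.334% of the 7 markers in Des+/+ non-swim and to 0.00400 to 0.0166% in Des-/- non-swim libraries and was lower without overlap, as 75.1% of tested genes were on this measure.

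The rest of the Wnt pathway was described from lists by role, 84 genes in all, of which 60 were tested. Of these, 11 were higher and 3 lower in unexercised Des-/- cells, and 6 were higher and 0 lower after swimming. Of all tested genes 14.0% and 5.01% were called higher, and 32.0% and 10.6% in either direction. For swimming in either genotype and for the interaction the count of pathway genes called was 0. Without replicate 3 of both Des-/- groups 1 was called higher (Tcf7l1) and 1 lower (Fzd2) for swimming in Des+/+ cells. When 1 library was left out, 7 of the 14 calls without swimming held in all 12 fits (Kremen1, Igfbp4, Apcdd1, Lgr4, Fzd1, Fzd2 and Pygo1), and 0 of the 6 calls after swimming did. Without Des-/- non-swim replicate 3 the calls of Fzd8 (log2 0.42), Ror2 (0.74), Nkd2 (1.45), Wnt4 and Myc in unexercised cells were lost, and without Des-/- swim replicate 3 all 6 calls after swimming were lost, with Rspo1 at 1.67. With replicate 3 of both Des-/- groups left out, 16 pathway genes were higher and 3 lower without swimming and 7 higher and 2 lower after it, of 63 tested. In that fit Wnt4, Fzd8 and Myc were not called without swimming, nor Rspo1 and Tcf7l2 after it.

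Among 13 other antagonists and their receptors, 5 had enough reads. Igfbp4, a binding protein of insulin-like growth factors that also inhibits Wnt signalling, was higher without swimming (log2 1.39, SE 0.19, adjusted p 9.10e-04), at 610 ± 94.8 against 232 ± 34.6 CPM (SD, n = 3 each). Apcdd1, a membrane-bound inhibitor, was higher both without (log2 1.22, SE 0.19, adjusted p 0.00121) and after swimming (log2 0.85, SE 0.19, adjusted p 0.0212). Kremen1, the receptor through which Dickkopf proteins remove Lrp6, was lower without swimming (log2 -0.95, SE 0.23, adjusted p 0.0112). Sost, encoding sclerostin, was higher after swimming (log2 2.32, SE 0.53, adjusted p 0.0228) at low levels of 3.06 ± 0.59 against 0.609 ± 0.425 CPM (SD, n = 3 each), and had a log2 change of -0.25 without swimming.

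Of 19 Wnt ligands 10 were tested, all with a log2 change above 0 without swimming, and Wnt4 was called (log2 1.50, SE 0.51, adjusted p 0.0436). The most abundant ligands per length, Wnt9a and Wnt5b, changed by log2 0.63 (adjusted p 0.0765) and 0.07 (adjusted p 0.883). Among 10 genes of ligand release and enhancement, of which 6 were tested, the R-spondin receptor Lgr4 was lower without swimming (log2 -0.86, adjusted p 0.00493). Rspo1, which raises Wnt receptor levels, was higher after swimming (log2 2.59, SE 0.75, adjusted p 0.0489), and Wls, the carrier that brings Wnt proteins to the cell surface, changed by 0.42 without swimming (adjusted p 0.397).

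All 15 receptors and co-receptors were tested. Fzd1 (log2 1.32), Fzd2 (1.02), Fzd8 (0.66) and Ror2 (1.13) were higher without swimming, and Fzd1 (0.90) and Fzd2 (1.09) also after it. The most abundant receptors, Fzd4 and Lrp5, changed by log2 -0.25 (adjusted p 0.472) and 0.15 (adjusted p 0.569) without swimming.

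Of 18 transducers 17 were tested, with a median log2 change of -0.03 without swimming. The TCF/LEF factors Tcf7 (log2 1.69) and Tcf7l1 (0.50) were higher and the beta-catenin cofactor Pygo1 (-1.14) lower without swimming, and Tcf7l2 (0.68) was higher after it. Ctnnb1, which encodes beta-catenin, was 1212 ± 47.9 CPM in Des+/+ non-swim and 1186 ± 190 CPM in Des-/- non-swim cells (SD, n = 3 each), a log2 change of -0.03 with an adjusted p of 0.915. Dvl1, a Dishevelled protein that relays the signal from Frizzled and after Ctnnb1 the most abundant transducer per length, changed by log2 -0.10 without (adjusted p 0.661) and 0.39 after swimming (adjusted p 0.135).

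Of 9 feedback targets 7 were tested, and Nkd2 (log2 2.07, adjusted p 0.0290) and Myc (2.64, adjusted p 0.0463) were higher without swimming. Myc was 80.5 CPM in Des-/- non-swim replicate 3 and 8.19 and 10.9 CPM in the other 2 libraries of that group, and without replicate 3 of both Des-/- groups the change was 0.91 and not called. Axin2, the target most used as a readout of the canonical branch, was 3.79 to 7.83 CPM in Des+/+ non-swim and 4.02 to 9.97 CPM in Des-/- non-swim libraries and did not pass the test (log2 0.34, SE 0.43, adjusted p 0.574). Ccnd1, the most abundant target per length, changed by log2 0.53 (adjusted p 0.208).

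**Figure D5:**
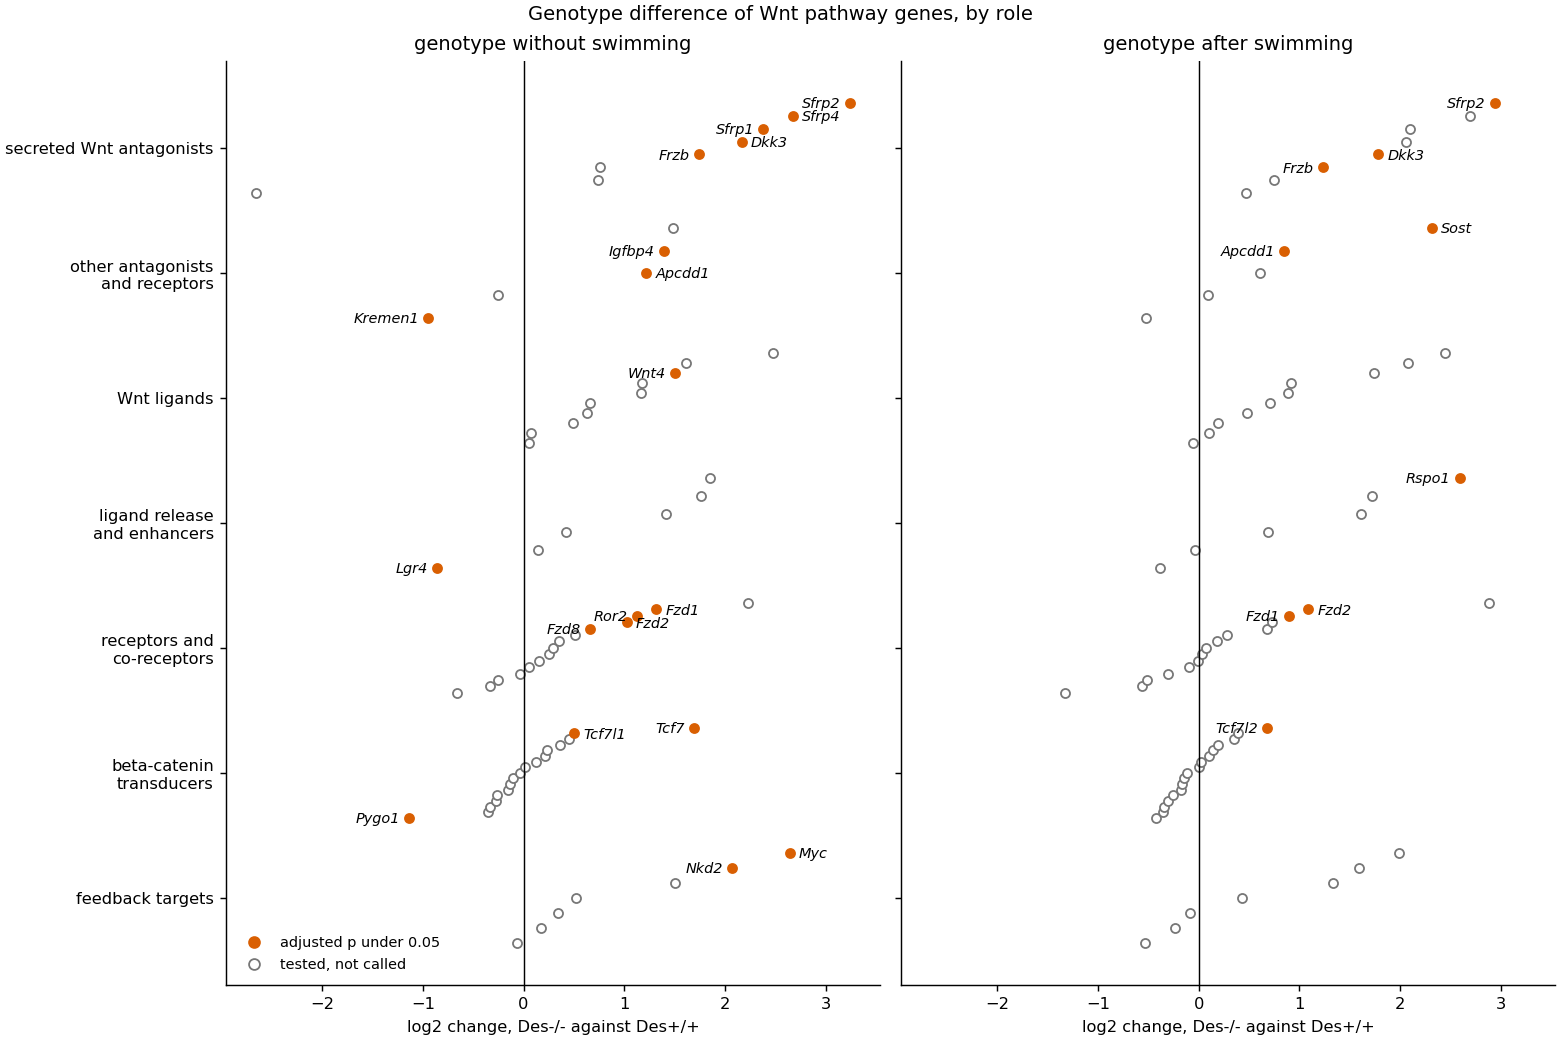
Log2 change between Des-/- and Des+/+ cells (x axis) of the tested genes of the Wnt pathway, 1 point per gene, ordered by role from top to bottom. Filled orange points, with names, have an adjusted p under 0.05. Of the 8 secreted antagonists in the top row 5 are filled without swimming (left) and 3 after it (right), while the 17 transducers centre near 0, at medians of -0.03 and -0.12.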

How the data were processed

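Poly-A RNA of cardiomyocytes was sequenced in 12 libraries, grouped by their labels into 4 groups of 3. The authors deposited raw read counts per gene, made with HISAT2 2.2.1, SAMtools 1.13 and HTSeq-count (reverse strand) on GRCm38, without normalisation. The labels and the methods name different library kits. Members were matched by symbol, and positions and exon lengths came from GENCODE M21.

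Counts were analysed with edgeR 4.0.16 in R 4.3.3 (filterByExpr, TMM scaling, a model of 4 group means over 12 libraries, quasi-likelihood tests of 5 contrasts, Benjamini-Hochberg adjustment over 13158 genes, threshold 0.05). DESeq2 1.42.0, other scalings and filters, the study's filter (unadjusted p at most 0.05, absolute log2 change at least 0.6, mean count at least 20), a replicate block and leaving out libraries were alternatives. Leaving out replicate 3 of both Des-/- groups, the 6 Des-/- libraries with a block, and levels relative to fibroblast markers were chosen after seeing the data. Replicate numbers paired the Des-/- groups (correlations of deviations 0.36, 0.32 and 0.60), as seen in the data and not given by the labels. Between Des+/+ swim and Des-/- swim libraries the correlations were weaker (0.02, 0.12 and 0.12), though 5 of 6 best matches shared a number. The procedure was also run on simulated counts with known changes between the unexercised genotypes. Changes were placed only in genes with a mean above 20 counts, and no differences between pools were simulated. That run therefore does not cover members with few reads or the behaviour of replicate 3.

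Members, pathway lists and marker lists were chosen with earlier results of these data known. All members are named, with Des, and pathway genes are named if called or among the 2 most abundant per length in their list. Axin2, outside this rule, was added with its values known. For each member the 3 genes with the highest r are given. Depth is 4320819 to 12072443 reads in genes, and intervals cover counting error only.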

Additional observations from a re-analysis of the deposited data

How the results depend on the processing

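Without swimming, 5 members were called in the fit of all libraries, 4 to 6 under the other tools, scalings, filters and fits, and 3 to 6 when 1 library was left out, with 3 without any single Des+/+ non-swim library. After swimming, 3 were called, against 6 with DESeq2, 5 with the study's filter and 0 to 5 when 1 library was left out, with 0 without Des+/+ swim replicate 2 or 3, 1 without Des+/+ swim replicate 1 or Des-/- swim replicate 1 and 5 without Des-/- non-swim replicate 3. For swimming in Des-/- cells the count was 1 without replicate 3 of both Des-/- groups, which is Sfrp1. The cause of these shifts was not tested.

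Directions turned in 3 cases. Wif1 without swimming was -0.52 without Des-/- non-swim replicate 2 (range over such fits -0.52 to 1.28). Sfrp5 after swimming was -0.15 without Des+/+ swim replicate 2 and -0.27 without Des-/- swim replicate 2 (range -0.27 to 1.26). No other change printed for a member changed sign under the alternatives run.

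The replicate block left 5 and 3 members called in the genotype contrasts and 0 in the others, and it changed no call of a member. In the 6 Des-/- libraries alone it called 82 genes for swimming, against 3 in the fit of all libraries, and 0 of the members.

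Over all genes, calls ranged from 2612 to 4822 without swimming and from 74 (without Des+/+ swim replicate 3) to 2313 (the study's filter) after it, from 0 to 1358 and from 0 to 1132 for swimming in Des+/+ and Des-/- cells, and from 0 to 318 (DESeq2) for the interaction. The backgrounds printed beside the members' counts move with these numbers. For Sfrp4, Sfrp5 and Dkk2, with counts of 0 to 55 reads per library, the depth limits precision, and differences that missed the threshold are not shown to be absent.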
